A study of Homo sapiens with 16 samples.

Results

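The messenger RNAs described here encode subunits of Integrator and of the machinery that cuts and polyadenylates the 3′ ends of transcripts. They were chosen by gene symbol: protein-coding genes named INTS, CPSF or CSTF with a number, together with PCF11, CLP1, SYMPK, FIP1L1, WDR33, NUDT21, PABPN1, PAPOLA, PAPOLG, RBBP6 and SLBP. The rule found 35 genes among the 16324 listed in both of the authors' deposited tables, of which 13210 are protein-coding. Of the 37 RefSeq protein-coding symbols that meet the rule, 2 had no row of that name: CPSF4L was not analysed here, and INTS15, listed under its older symbol C7orf26, is described with the related genes.

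The series is a RIP-seq study, in which RNA that comes down with a tagged protein is sequenced beside the RNA of the lysate (input). Cells labelled UM-SCC-1, a line from a head and neck squamous carcinoma, had been infected with lentivirus carrying a Strep-tagged empty vector (Vec), Strep-tagged ALKBH5 or Strep-tagged RBM33, and selected with puromycin. ALKBH5 is a demethylase of N6-methyladenosine (m6A) in RNA, and RBM33 is an RNA-binding protein. By the labels, Vec and ALKBH5 each have 3 libraries of pulled-down RNA with 3 of input RNA, while RBM33 has 2 of either kind, 16 libraries in 6 groups. The baits came from the virus, on top of any copies of the cells' own. Whether replicates were grown as separate cultures is not said, and the deposited p-values may reflect technical spread alone.

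The data analysed are 2 tables of comparisons made by the authors, 1 per bait, without values per library. Both carry siCtrl in their names, although the labels of these libraries give no siRNA. Each lists for every gene the average log2 CPM (counts scaled to library size), the log2 fold change, an F statistic and an adjusted p-value. The groups behind each ratio and its direction are not stated. Values are therefore called positive or negative as the tables have them, and neither word means bound or depleted. Where a pair of values is given, the first is from the table for ALKBH5 and the other from that for RBM33. A gene is called where the authors' adjusted p is under 0.05. Since the values have no replicates behind them here, no standard deviation or n accompanies them, and the depth of the libraries is unknown. The tables may or may not share libraries, so their values are set side by side and agreement between them was not tested. The baits' own mRNAs were positive, each in the one of the authors' deposited tables named for it: ALKBH5 had 1.28 (adjusted p = 0.00158) and RBM33 had 3.41 (adjusted p = 5.14e-05). In the other table ALKBH5 had -0.21 (adjusted p = 0.245) and RBM33 had 1.17 (adjusted p = 7.1e-06). Of 13 squamous epithelial markers, 3 were listed, DSC3 among them, and KRT5, KRT14, TP63 and 7 others were not. Of 5 markers of embryonic kidney lines or neurons, 2 were listed, the neurofilament genes NEFL and NEFM, while NEFH, INA and STMN2 were not. NEFL and NEFM had average log2 CPM of 8.10 and 7.72 per the authors' deposited table for ALKBH5. Both were called negative there, at -1.90 and -1.91. The other table gave -1.53 and -1.19 for them, also called. DSC3 was called negative as well, at -0.95 and -0.59 per the authors' deposited tables. Of 4 fibroblast markers, COL1A1 was the 1 listed, and it was called positive at 1.91 and 1.36 per the authors' deposited tables. No leukocyte or endothelial marker of 4 and 3 was listed. The part of this marker pattern in the values below was not tested, and the cells are called by their label.

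Almost every mRNA acquires its 3′ end by cleavage followed by addition of a poly(A) tail. CPSF reads the AAUAAA signal and cuts, CstF and the cleavage factors I and II (CF I, CF II) bind around the site, and a poly(A) polymerase adds the tail, which PABPN1 coats in the nucleus. Integrator is a separate complex on RNA polymerase II. It carries its own endonuclease, related to that of CPSF, and a bound phosphatase, cuts the ends of small nuclear RNAs and stops polymerases that have paused near promoters. Replication-dependent histone mRNAs are cut without being polyadenylated and keep a stem-loop that SLBP binds.

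The mRNAs of these proteins lay on both sides of zero, and subunits of a single complex often lay apart. Per the authors' deposited table for ALKBH5, 11 of 35 were positive, 12 negative and 12 not called. Across all 16324 genes there, 30.5% were positive and 29.1% negative, and among protein-coding genes 27.5% and 33.3%. The authors' deposited table for RBM33 had 10 positive, 12 negative and 13 not called, beside 24% of all genes positive and 27% negative there, and 21.5% and 31.2% among protein-coding genes. These counts lie near the background in both directions, so they are no result about the list as a whole. Its median was 0.11 for ALKBH5 and -0.06 for RBM33 per the authors' deposited tables, beside -0.08 and -0.13 for protein-coding genes and 0.03 and -0.02 for all genes. The values ran from -1.83 for INTS13 to 1.40 for RBBP6 per the authors' deposited table for ALKBH5. Their quartiles, -0.68 and 0.46, lay inside those of protein-coding genes, -0.79 and 0.69, so the spread for ALKBH5 was no wider than the background. The quartiles for RBM33 were -0.875 and 0.45, beside -0.85 and 0.62 for protein-coding genes, so the lower one lay just outside.

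**Figure D1:**
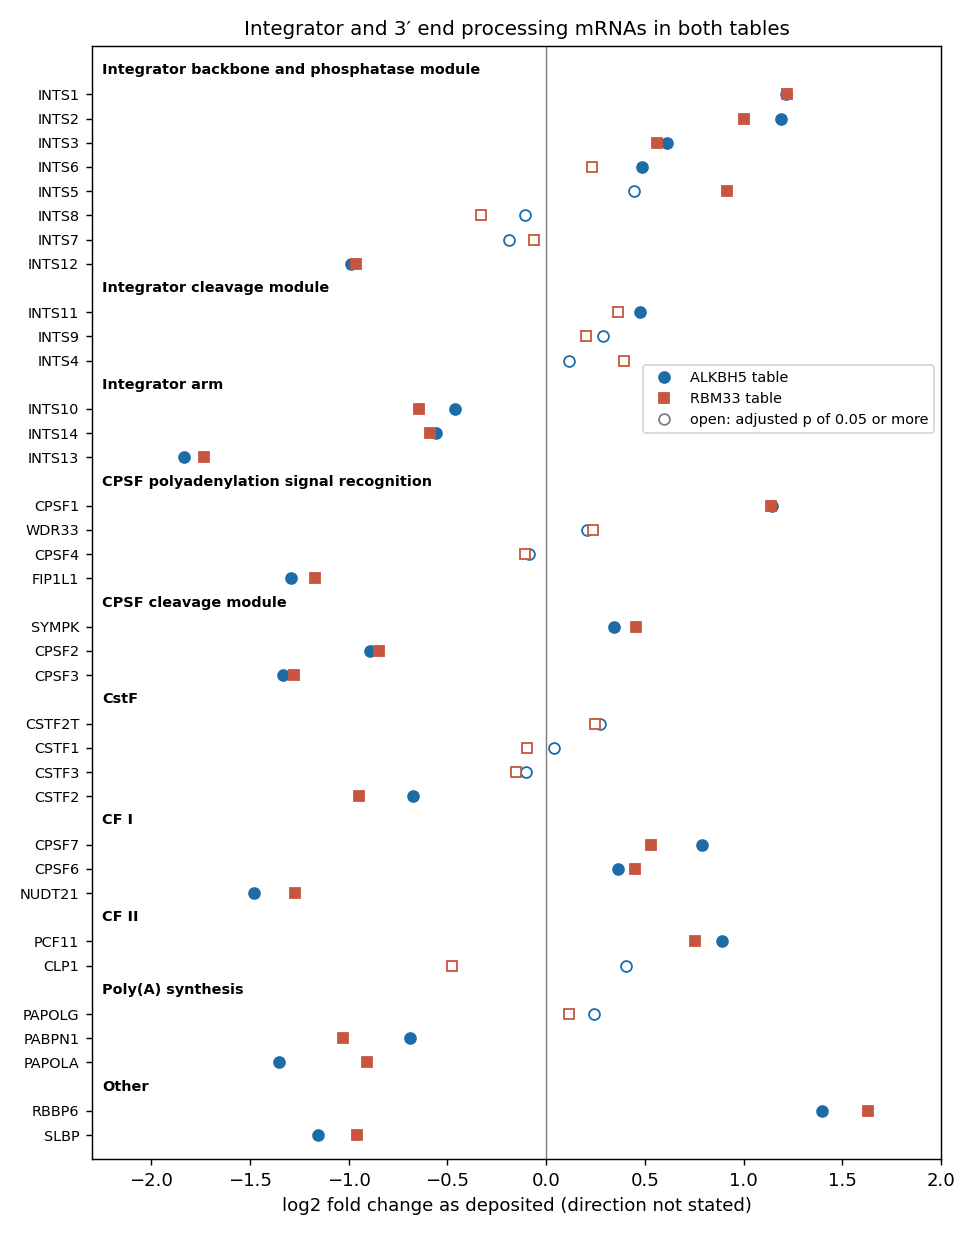
Log2 fold change (horizontal axis) of each of the 35 mRNAs, grouped by the role of the protein, with circles for the ALKBH5 table and squares for the RBM33 table; filled symbols have an adjusted p under 0.05. INTS13 is at the negative end of both tables and RBBP6 at the positive end, and CF I and both CPSF modules have members on each side of zero.

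Calls of at least 1 log2 unit, a change of 2-fold or more, were few. Positive values of that size belonged to 4 of the 35 in each of the authors' deposited tables: RBBP6, INTS1, INTS2 and CPSF1. Over all genes the shares were 21% for ALKBH5 and 17.1% for RBM33. Among the 13210 protein-coding genes, 2176 and 1759 had such values. The share of 4 in 35 was smaller than each of these, but it rests on few genes and was not tested. Negative values of that size were held by 16.2% and 16.7% of all genes, and by 2346 and 2478 of the protein-coding genes. Among the 35 they belonged to 6 genes for ALKBH5 and 5 for RBM33 per the authors' deposited tables. INTS13, NUDT21, CPSF3 and FIP1L1 were among them in each table, with PAPOLA and SLBP for ALKBH5 and PABPN1 for RBM33. The highest of the 35 reached percentile 89.5 of protein-coding genes for ALKBH5 and 93.7 for RBM33 per the authors' deposited tables, and the lowest percentiles 3.27 and 4.88.

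**Figure D2:**
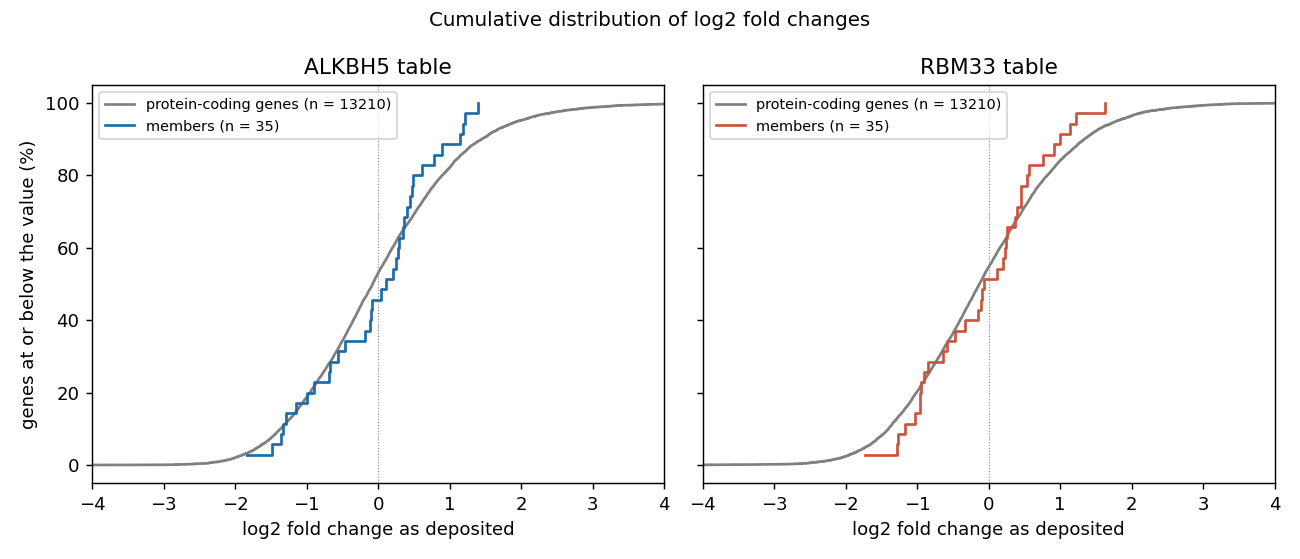
Cumulative share of genes (vertical axis, percent) at or below a log2 fold change (horizontal axis), for the 35 mRNAs in colour and the 13210 protein-coding genes in grey, 1 panel per table. The coloured curve ends at 1.40 for ALKBH5 and 1.63 for RBM33, where the grey curve still has genes to its right.

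Among the 14 Integrator subunits listed under INTS symbols, 5 were positive and 4 negative for ALKBH5, with 4 and 4 for RBM33, per the authors' deposited tables. Among protein-coding genes 27.5% were positive and 33.3% negative for ALKBH5, with 21.5% and 31.2% for RBM33. Of the 8 mRNAs for the backbone and the module that holds protein phosphatase 2A, 4 were positive and 1 negative in each of the authors' deposited tables. The median listed length of these 8 was 8246.5 bases. Counts in this and the smaller groups below rest on few genes and were not tested against those shares. INTS1 (ENSG00000164880, chromosome 7, 1470277 to 1504389, hg38), the largest scaffold subunit, stood at 1.21 (adjusted p = 1.06e-06) for ALKBH5 and, for RBM33, 1.22 (adjusted p = 0.000104) per the authors' deposited tables. Its neighbour in the backbone, INTS2, had 1.19 (adjusted p = 0.000483) and 1.00 (adjusted p = 0.00279) there, which are fold changes of 2.28 and 2.00 per the authors' deposited tables. INTS3, which also forms the SOSS complex of single-stranded DNA repair, was positive per both of the authors' deposited tables at 0.61 and 0.56 (adjusted p = 0.000562 and 0.0136). The values of INTS1 and INTS2 lay farther from zero than those of INTS3 in each table.

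INTS6, which joins the phosphatase to the complex, had 0.48 (adjusted p = 0.0125) for ALKBH5 and an uncalled 0.23 (adjusted p = 0.241) for RBM33 per the authors' deposited tables. INTS5 showed the opposite order, at an uncalled 0.45 (adjusted p = 0.227) and a called 0.92 (adjusted p = 0.0373) per the authors' deposited tables, on a low average log2 CPM of 2.69 and 2.91. That a call was made in one table and not in the other is no difference between the baits, which could not be tested without values per library. INTS12, a small subunit with a PHD finger, was the exception in this group at -0.99 and -0.97 (adjusted p = 0.000301 and 0.000485) per the authors' deposited tables. INTS7 and INTS8 were called in neither of the authors' deposited tables (-0.19 and -0.11 for ALKBH5, -0.06 and -0.33 for RBM33).

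The cleavage module, INTS4, INTS9 and the endonuclease INTS11, had values between 0.11 and 0.48. INTS11 was the 1 called mRNA of the 3, at 0.48 (adjusted p = 0.00568) per the authors' deposited table for ALKBH5, and had 0.37 (adjusted p = 0.105) for RBM33. For INTS9, the partner that dimerises with INTS11, the authors' deposited tables gave 0.29 and 0.20, and for INTS4, which holds that dimer, 0.11 and 0.40. The pseudogenes INTS4P1 and INTS4P2 are listed too. INTS4P1 had 1.51 (adjusted p = 0.00587) and an uncalled 1.14, and INTS4P2 an uncalled 0.90 and 1.38, per the authors' deposited tables. Their average log2 CPM was low, at 1.73 and 1.22 for INTS4P1 and 0.76 and 0.63 for INTS4P2. Reads of INTS4 and these copies may have been divided between them, so its value is uncertain.

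INTS10, INTS13 and INTS14 of the Integrator arm were negative. All 3 mRNAs were called in both of the authors' deposited tables, and none of the 3 was positive. Of protein-coding genes 33.3% and 31.2% were negative, and 3 genes are too few for a result about the arm. Their median listed length was 4210 bases, and the part of length in this count was not tested. INTS15, also assigned to the arm and listed as C7orf26, was not called, at 0.05 and 0.02 per the authors' deposited tables. INTS13 (ENSG00000064102, chromosome 12, 26905181 to 26938326), known also as Asunder, had the lowest value of the 35: -1.83 (adjusted p = 4.81e-07) for ALKBH5 and, for RBM33, -1.73 (adjusted p = 9.93e-06) per the authors' deposited tables. In linear terms these are ratios 3.57 and 3.32 times below 1 per the authors' deposited tables. INTS14 had -0.56 (adjusted p = 0.00312) and -0.59 (adjusted p = 0.0122), and INTS10 -0.46 (adjusted p = 0.00908) and -0.64 (adjusted p = 0.00446), per the authors' deposited tables. INTS13 was thus about 3 log2 units below INTS1, a subunit of the same complex; differences between genes were not tested.

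The upstream sequences of these subunits at opposite ends are shown with those of 2 CF I subunits that also lay apart, CPSF7 (positive) and NUDT21 (negative). Each is the 250 bases before the RefSeq start of the gene (GRCh38.p14, minus strand, written 5′ to 3′ along the transcript). Capitals mark matches to CCGGAAG, the core of ETS family sites, and to CCAAT, the box read by NF-Y, on either strand; matches of different motifs may share letters. The windows are chr7:1504390-1504639 for INTS1, chr12:26937982-26938231 for INTS13, chr11:61429976-61430225 for CPSF7 and chr16:56451333-56451582 for NUDT21.
INTS1: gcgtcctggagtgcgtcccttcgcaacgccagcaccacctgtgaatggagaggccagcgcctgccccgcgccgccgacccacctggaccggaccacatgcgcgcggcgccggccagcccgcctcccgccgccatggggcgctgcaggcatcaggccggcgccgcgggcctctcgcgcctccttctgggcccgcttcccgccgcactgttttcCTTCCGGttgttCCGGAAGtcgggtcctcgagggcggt
INTS13: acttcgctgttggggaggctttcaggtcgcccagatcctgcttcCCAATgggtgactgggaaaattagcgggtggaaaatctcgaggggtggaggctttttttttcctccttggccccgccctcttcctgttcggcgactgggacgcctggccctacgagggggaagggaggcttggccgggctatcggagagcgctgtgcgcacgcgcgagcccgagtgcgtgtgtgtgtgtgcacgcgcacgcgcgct
CPSF7: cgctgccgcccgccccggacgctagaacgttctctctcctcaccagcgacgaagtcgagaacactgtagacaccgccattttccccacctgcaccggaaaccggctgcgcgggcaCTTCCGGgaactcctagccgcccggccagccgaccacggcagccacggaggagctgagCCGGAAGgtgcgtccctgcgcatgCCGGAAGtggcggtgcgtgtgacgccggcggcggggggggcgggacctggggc
NUDT21: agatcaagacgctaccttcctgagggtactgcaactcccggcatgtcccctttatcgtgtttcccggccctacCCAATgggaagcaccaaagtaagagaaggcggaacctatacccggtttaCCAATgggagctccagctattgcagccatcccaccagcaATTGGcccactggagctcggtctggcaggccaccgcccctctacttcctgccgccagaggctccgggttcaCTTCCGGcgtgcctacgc
INTS1 has 2 ETS matches, CPSF7 has 3, INTS13 has 1 CCAAT match, and NUDT21 has 3 CCAAT matches and 1 ETS match. Over the 30 of the 35 genes with a RefSeq window, 9 (30%) held CCGGAAG and 14 (46.7%) held CCAAT, against 18.9% and 42.4% of the 10355 protein-coding genes matched. The TATA box letters TATAAA were, on either strand, in 0 of the 30 windows and in 8.22% of those genes. Among the genes positive for ALKBH5, 4 of 10 had CCGGAAG and 5 of 10 CCAAT, and among the negative 3 of 11 and 5 of 11, so the letters did not divide as the signs did. The median GC share of the window was 66.4% in the positive and 63.6% in the negative genes, beside 64.8% in the protein-coding genes matched. By the positions in the tables, the windows of NUDT21 and INTS13 lie inside the listed gene and that of CPSF7 overlaps its start, so the RefSeq start is not the first listed base of these genes.

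CPSF divides into a part that recognises the poly(A) signal and a part that cuts, and both had members on each side. In the recognition part, CPSF1, the scaffold subunit (ENSG00000071894), stood at 1.15 and 1.14 (adjusted p = 2.35e-06 and 0.000168) per the authors' deposited tables. The pseudogene CPSF1P1 is listed too, at 0.74 and 0.97 (adjusted p = 0.0362 and 0.0644), on a low average log2 CPM of 2.71 and 2.22. Reads of CPSF1 and this copy may have been divided between them. FIP1L1, which recruits poly(A) polymerase, stood at -1.29 (adjusted p = 4.18e-06) and -1.17 (adjusted p = 8.85e-05) per the authors' deposited tables. WDR33 and CPSF4, the subunits that contact the AAUAAA signal itself, were not called, at 0.21 and -0.09 for ALKBH5 and 0.24 and -0.11 for RBM33 per the authors' deposited tables. So the scaffold and the recruiting subunit lay over 2 log2 units apart, with the signal readers between them.

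In the cutting part, the endonuclease CPSF3 was negative at -1.33 (adjusted p = 6.17e-06) and -1.28 (adjusted p = 5.2e-05) per the authors' deposited tables. CPSF2, its inactive relative and partner, was negative as well, at -0.89 and -0.84 (adjusted p = 6.92e-05 and 0.000456) per the authors' deposited tables. SYMPK, the scaffold that ties them to the rest, was positive at 0.34 (adjusted p = 0.0254) and 0.45 (adjusted p = 0.0248) per the authors' deposited tables. The nuclease pair of CPSF was therefore negative, while the corresponding pair of Integrator, INTS11 and INTS9, had values above zero, of which 1 of 4 was called.

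CstF binds the GU-rich element downstream of the cut. Of its mRNAs, CSTF2, which holds the RNA-binding domain, was the 1 called: -0.67 (adjusted p = 0.00578) and -0.95 (adjusted p = 0.00119) per the authors' deposited tables. Its intronless paralog CSTF2T had 0.27 and 0.25 (adjusted p = 0.305 and 0.549) per the authors' deposited tables, and reads common to both copies may have been divided. CSTF1 (0.04 and -0.10) and CSTF3 (-0.10 and -0.15) were not called per the authors' deposited tables. CF I binds UGUA elements and steers the choice among poly(A) sites. NUDT21 (ENSG00000167005, chromosome 16, 56429133 to 56452199), its small subunit, was at -1.48 (adjusted p = 3.87e-07) and -1.27 (adjusted p = 4.54e-05) per the authors' deposited tables. Its larger partners had the other sign: CPSF7 at 0.79 and 0.53 (adjusted p = 6.37e-05 and 0.00894), and CPSF6 at 0.37 and 0.45 (adjusted p = 0.0128 and 0.024), per the authors' deposited tables. All 3 CF I mRNAs were thus called in both tables, 1 negative and 2 positive.

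CF II consists of PCF11, which links cleavage to termination of transcription, and the RNA kinase CLP1. PCF11 was positive at 0.89 (adjusted p = 0.000102) and 0.76 (adjusted p = 0.00768) per the authors' deposited tables. CLP1 had 0.40 for ALKBH5 and -0.48 for RBM33 per the authors' deposited tables, with adjusted p of 0.515 and 0.441, and was the only one of the 35 whose values lay over 0.5 log2 units apart. Its average log2 CPM was low, at 2.97 and 2.70 per the authors' deposited tables.

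Of the 3 mRNAs for poly(A) synthesis and binding, 2 were negative in each table. PAPOLA, the main nuclear poly(A) polymerase, stood at -1.35 (adjusted p = 1.58e-06) and -0.91 (adjusted p = 0.00056) per the authors' deposited tables. The related polymerase PAPOLG had an uncalled 0.24 and 0.12 (adjusted p = 0.376 and 0.669) per the authors' deposited tables. PABPN1 was negative at -0.69 and -1.03 (adjusted p = 0.000204 and 0.000198) per the authors' deposited tables. The read-through gene BCL2L2-PABPN1 covers it on the same strand and had -1.08 and -1.29, so reads of one may be counted for the other. RBBP6 (ENSG00000122257, chromosome 16, 24537693 to 24572863), a ubiquitin ligase that activates the cleavage complex, had the highest value of the 35, 1.40 (adjusted p = 1.63e-06) and 1.63 (adjusted p = 0.000125), per the authors' deposited tables. SLBP, the histone stem-loop binding protein, was negative at -1.16 (adjusted p = 9.24e-06) and -0.96 (adjusted p = 0.000212) per the authors' deposited tables. The polymerase that adds the tail and the nuclear protein that coats it were thus both negative, as was the factor that serves transcripts without a tail.

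The listed gene length went with the values. It is the length in bases that the tables print for a gene, not that of 1 transcript. Of the 14 mRNAs up to the protein-coding median of 5228 bases, 0 were positive and 7 negative for ALKBH5, with 1 and 7 for RBM33, per the authors' deposited tables. Of the 21 longer ones, 11 were positive and 5 negative for ALKBH5, with 9 and 5 for RBM33, per the authors' deposited tables. Protein-coding genes split the same way: 13.9% of the shorter 6605 were positive and 45.1% negative for ALKBH5, against 41.1% and 21.5% of the longer 6605. For RBM33, 9.22% of the shorter were positive and 43.4% negative, against 33.7% and 18.9% of the longer. Medians were -0.33 and 0.34 in the shorter and longer mRNAs described here, and -0.48 and 0.30 in protein-coding genes of those lengths, per the authors' deposited table for ALKBH5. Across the 35, Spearman's rho of log2 fold change with listed length was 0.42 for ALKBH5 and 0.50 for RBM33, and across protein-coding genes 0.41 and 0.45. These are descriptions across genes, which are not independent replicates and share their libraries. With the genomic span, introns included, rho across the 35 was -0.13 and -0.05, and across protein-coding genes 0.22 and 0.24. The part of length in the values of single genes was not tested.

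**Figure D3:**
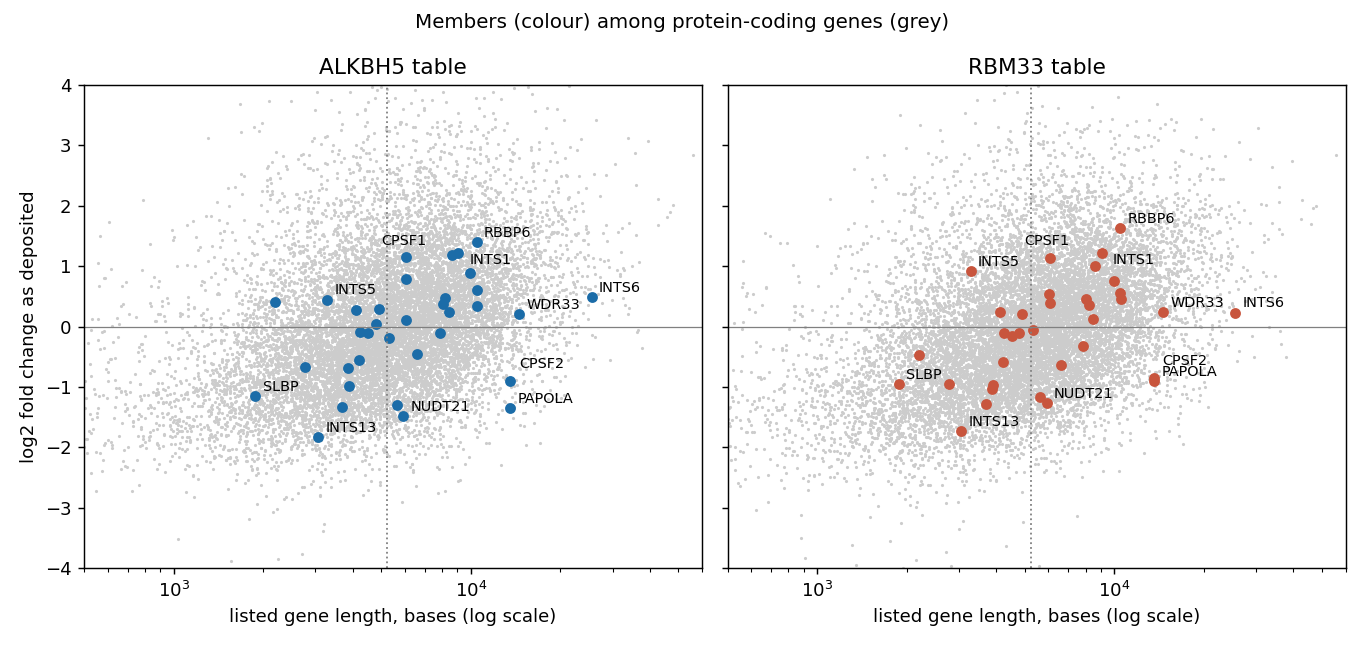
Log2 fold change (vertical axis) against listed gene length in bases (horizontal axis, log scale) for the 35 mRNAs in colour and protein-coding genes in grey, 1 panel per table; the dotted line is the protein-coding median of 5228 bases. PAPOLA and CPSF2 are negative at 13607 and 13563 bases, and INTS13 and SLBP are negative among the shorter genes.

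Some genes departed from that order. PAPOLA and CPSF2, with listed lengths of 13607 and 13563 bases, were negative, and so were NUDT21 (5930 bases), FIP1L1 (5639) and INTS10 (6618) among the longer 21 per the authors' deposited tables. INTS6, the longest at 25509 bases, stood at 0.48 and 0.23, below CPSF1, which has 6058 bases and 1.15 and 1.14 per the authors' deposited tables. In the shorter class INTS5, with 3285 bases, was the 1 positive mRNA, per the authors' deposited table for RBM33. Abundance did not order the 35: rho of log2 fold change with average log2 CPM was -0.03 in each table. For protein-coding genes it was -0.27 in each. Per kilobase of listed length, average log2 CPM per the authors' deposited table for ALKBH5 ranged from 0.88 for INTS2 to 5.57 for INTS13, and SLBP was next at 5.52. The 2 most abundant mRNAs per listed length were therefore both negative, while PABPN1 (4.89, negative) and CPSF1 (4.45, positive), which came next, had opposite signs. Dividing by listed length raises this measure for short genes, and INTS13 and SLBP have 3059 and 1884 bases. It is therefore not separate from the order by length.

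Overlapping genes limit single values. Of the 35, 19 overlap another listed gene, 4 of them on the same strand (INTS3, INTS5, FIP1L1 and PABPN1) and 15 on the opposite strand only. The library kit keeps strand, per the labels, but the strand setting of the counting was not given, and reads of opposite partners may be mixed. PCF11 overlaps the antisense transcript AP000873.2, which stood at 2.60 and 2.66 per the authors' deposited tables. INTS6 overlaps INTS6-AS1 (1.85 and 1.38), and CPSF1 overlaps ADCK5 (2.69 and 0.88), per the authors' deposited tables. The values of both partners for RBM33 were not called, and INTS6-AS1 had a low average log2 CPM of 0.66 and 0.79. On the same strand, INTS5 overlaps AP001458.2, called negative at -2.20 and -1.75, while INTS5 itself lay above zero. INTS3 overlaps SLC27A3 (1.33 and 0.87, not called for RBM33) and FIP1L1 overlaps AC058822.1 (-0.97 and -1.03), per the authors' deposited tables. NUDT21 overlaps OGFOD1, itself negative at -1.07 and -0.90 per the authors' deposited tables. The 16 genes without overlap had 5 positive and 7 negative calls in each of the authors' deposited tables, among them INTS1, INTS2, RBBP6 and INTS13.

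The proteins that work beside Integrator and the cleavage machinery were taken from 4 lists. Partners of Integrator had 4 positive and 3 negative of 11 for ALKBH5, with 4 and 2 for RBM33, per the authors' deposited tables. These are 36.4% and 27.3% for ALKBH5, beside 27.5% and 33.3% of protein-coding genes. For RBM33 they are 36.4% and 18.2%, beside 21.5% and 31.2%. The list is small and these differences were not tested. The SOSS partners of Integrator, NABP1 and NABP2, paralogous single-strand binding proteins, lay at opposite ends: NABP1 at 1.75 and 1.71 (adjusted p = 5.2e-07 and 4.31e-05) and NABP2 at -1.69 and -1.70 (adjusted p = 2.56e-06 and 2.24e-05) per the authors' deposited tables. INTS6L, the paralog of INTS6, was positive at 1.42 and 0.90, and PPP2CA, the catalytic subunit of the bound phosphatase, negative at -1.24 and -0.997, per the authors' deposited tables. C7orf26, the older symbol of the arm subunit INTS15, is counted in this list. It had 0.05 and 0.02 (adjusted p = 0.856 and 0.97) per the authors' deposited tables.

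Termination factors had medians of -0.59 and -0.35, with 3 positive and 9 negative of 17 for ALKBH5, and 4 and 8 for RBM33, per the authors' deposited tables. Among protein-coding genes 33.3% and 31.2% were negative, and 27.5% and 21.5% positive. The larger negative shares here were not tested. PPP1R10, the scaffold that brings protein phosphatase 1 to polymerase, was positive at 1.14 and 1.49 (adjusted p = 2.15e-05 and 4.18e-05) per the authors' deposited tables. The phosphatase that PPP1R10 binds, PPP1CA, was negative at -1.29 and -1.18, and NELFE, a subunit of the pausing factor NELF, at -1.34 and -1.29, per the authors' deposited tables. Histone pre-mRNA factors had 2 positive and 1 negative of 6 for ALKBH5, with 2 and 2 for RBM33, per the authors' deposited tables. So few genes say nothing about the list beside the protein-coding shares above, and no test was made. NPAT, which activates histone genes, stood at 1.41 and 1.13 and CASP8AP2 (FLASH), which recruits the cleavage complex to histone transcripts, at 0.77 and 0.58, whereas LSM10 of the U7 particle stood at -0.97 and -1.21, per the authors' deposited tables. SLBP, which acts with them, lay with LSM10 on the negative side.

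Factors that shorten the poly(A) tail had 2 positive and 8 negative of 14 for ALKBH5, with 2 and 7 for RBM33, per the authors' deposited tables. The 2 called positive in each table were PAN2, at 2.77 and 2.49 (adjusted p = 1.18e-07 and 1.59e-05), and PAN3, at 1.595 and 0.98 (adjusted p = 3.16e-05 and 0.00199), per the authors' deposited tables. They form the PAN2-PAN3 deadenylase. The deadenylase CNOT7 of the CCR4-NOT complex was at -1.34 and -1.35, and its neighbour CNOT6L, also a deadenylase, at -1.20 and -0.97, per the authors' deposited tables. Protein-coding genes as a whole were 33.3% negative for ALKBH5 and 31.2% for RBM33, so 8 and 7 of 14 are larger shares, which were not tested. Positive were 27.5% and 21.5% of protein-coding genes, beside 14.3% of this list in each table. Unlike CF I or CPSF, PAN2 and PAN3 had the same sign.

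**Figure D4:**
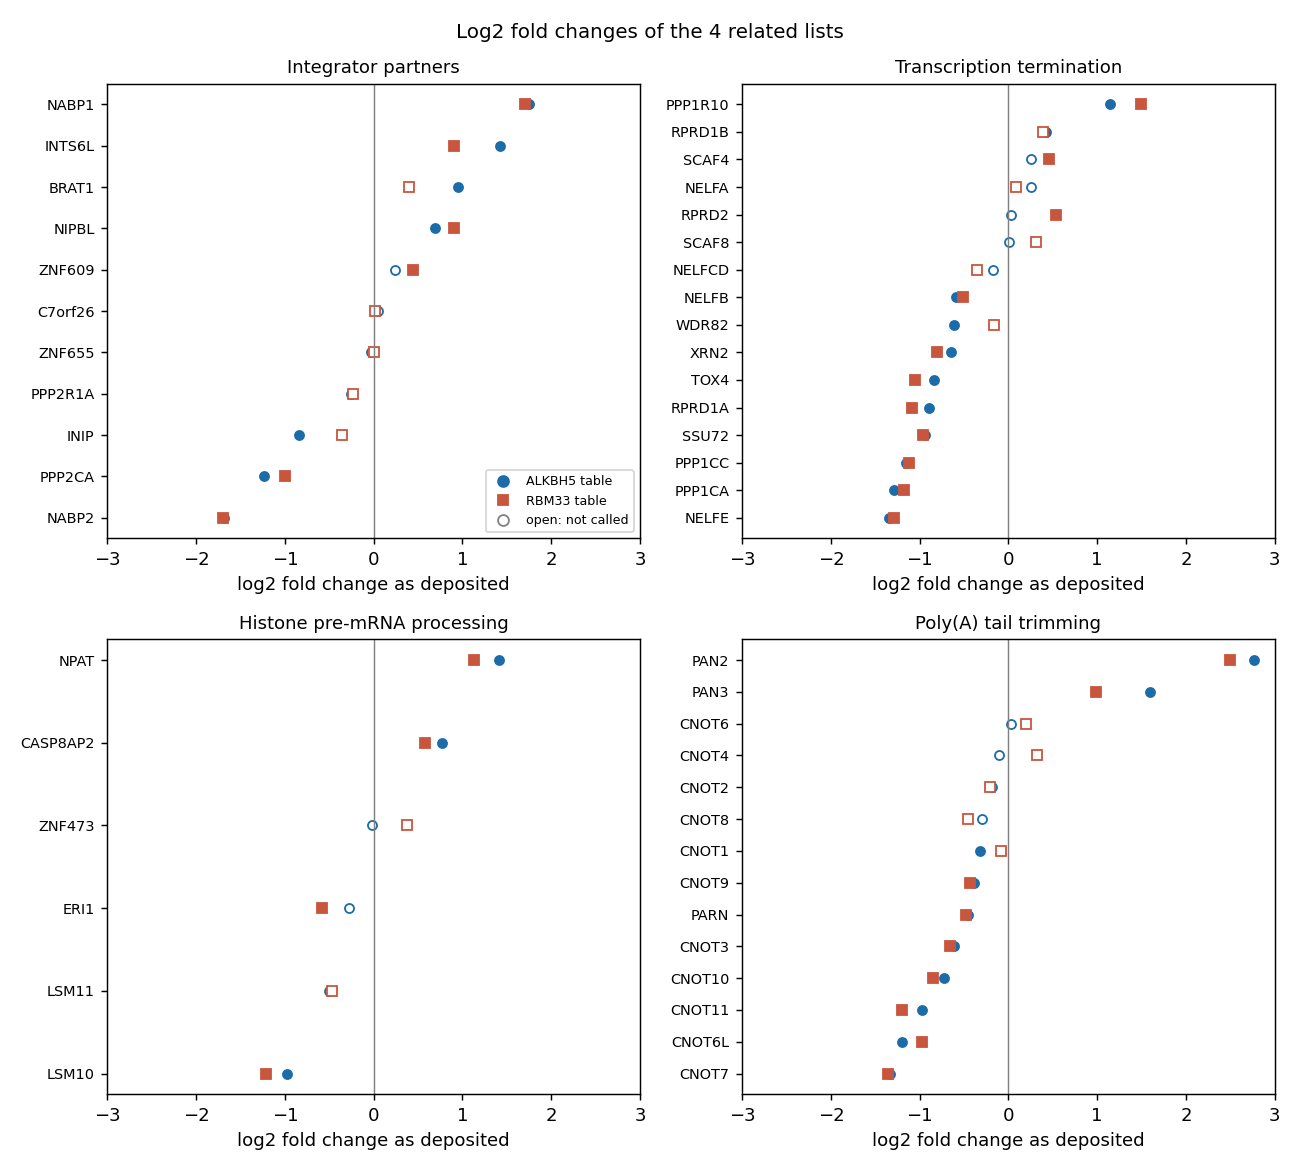
Log2 fold change (horizontal axis) of the genes reported here from the 4 related lists, with circles for the ALKBH5 table and squares for the RBM33 table; filled symbols have an adjusted p under 0.05. NABP1 and NABP2 lie at opposite ends of the Integrator partners, and PAN2 and PAN3 are the 2 genes called positive among the tail-shortening factors.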

How the data were processed

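Per the submitters' processing notes, the reads went through HISAT2 2.1.0, cutadapt 1.18, edgeR 3.24.3, Subread 1.6.4 and featureCounts (named without roles) on build hg38. Their settings, the annotation release and any low-count filter were not given in the sources used here. The authors' deposited tables hold for each gene, per the file headers, its position and listed length, a log2 fold change, a log2 CPM averaged over libraries, an F statistic (a score without fixed range), and a p-value with its adjusted value. Depth per library is unknown. The Benjamini-Hochberg adjustment was recomputed over 16324 genes and lay within 1.2e-15 of the deposited one.

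A call needed an adjusted p below 0.05, and its direction was the sign as deposited. The test was the authors' own, since the files hold no counts. Alternatives were a threshold of 0.01, a minimum of 1 log2 unit, adjustment over protein-coding genes, centring, abundance and overlap with other genes. The genes and lists were chosen with earlier results of these data known. All 35 genes are named. Of each related list, the 2 called genes with the largest and the 2 with the smallest log2 fold change in a table may be named. Other genes are named where they overlap or share reads with one of the 35, or as markers of cell identity; C7orf26 and the baits were added outside this rule. Some genes of these lists enter the counts but are not reported here by name. Promoter windows came from RefSeq (GRCh38.p14), matched by symbol. Calculations used Python 3.11.15 and pandas 2.3.3 and were tested on simulated data.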

Additional observations from a re-analysis of the deposited data

How the results depend on the processing

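No paired analysis was possible because the tables hold the authors' comparisons and no values per library; for the same reason no replicate could be left out. Requiring at least 1 log2 unit left 4 positive and 6 negative mRNAs for ALKBH5, and 4 and 5 for RBM33. At a threshold of 0.01 the positive calls for RBM33 numbered 6, and INTS6, CPSF6 and SYMPK (ALKBH5) and INTS3, INTS5, INTS14, CPSF6 and SYMPK (RBM33) were no longer called. The 16 genes that overlap no other gene had 5 positive and 7 negative calls in each table, fewer because fewer genes enter, and a median of -0.29 for RBM33. Among genes of at least median abundance the median for ALKBH5 was -0.10, and centring on protein-coding genes gave 0.0707 for RBM33, so the sign of the list's median is not settled in either table. Adjusting over protein-coding genes changed no single gene's call. Centring subtracted medians of -0.08 (ALKBH5) and -0.13 (RBM33) without a new test, so it could not alter which genes were called. No called gene changed sign, since every called value lay farther from zero than these medians. For RBM33, centring turned the sign of 3 genes that were not called, INTS7 (to 0.0707), CPSF4 (to 0.0243) and CSTF1 (to 0.0328).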
